A study of Mus musculus with 10 samples.

Results

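The IGF-binding proteins and Igfals were examined in fetal mouse liver. The 8 genes, Igfbp1 to Igfbp7 and Igfals, were chosen by name, with earlier results of these data known, and all 8 were found among the 55401 gene rows of the count table. All 8 were also among the 14098 genes that passed the filter on low counts and were tested. RNA sequencing was performed on livers of female fetuses at E18.5, late gestation, from 5 Mir483Pat-KO fetuses and 5 wild-type (WT) littermates. The Mir483Pat-KO fetuses had inherited from the father an allele from which the Mir483 microRNA gene had been removed in every cell, whereas WT littermates carried no deletion. The allele was made in JM8.F6 embryonic stem cells, a C57BL/6N line, by Cre-mediated excision, and the colony was kept on C57BL/6J. Each library came from 1 fetal liver, and the litter of each fetus was not given.

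The IGF-binding proteins are secreted carriers that hold IGF1 and IGF2 in blood and tissue fluid, lengthen their lifetime and limit their access to the IGF1 receptor. IGFALS, the acid-labile subunit, joins an IGF and IGFBP3 or IGFBP5 in a large circulating complex. The liver is a major source of several of these proteins before and after birth, with IGFBP1 known for its response to insulin, fasting and hypoxia, IGFBP2 as an abundant fetal carrier, and IGFALS for its dependence on growth hormone.

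Mir483 lies in an intron of Igf2 and gives 2 mature microRNAs. They are shown here because the members were searched for their target sites, with the seed (bases 2 to 8) in capitals (RefSeq, GRCm38.p6, minus strand).
miR-483-3p, chr7:142654932-142654952: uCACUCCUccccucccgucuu
miR-483-5p, chr7:142654968-142654989: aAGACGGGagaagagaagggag
The 7-base match to the miR-483-3p seed occurred once in the longest 3' untranslated region of Igfbp3 and once in that of Igfbp5. It was not found in those of the other 6 members. The match is in capitals in the stretches below (GRCm38, transcript strand, both genes on the minus strand).
Igfbp3, chr11:7206580-7206608: aaacaggaaagAGGAGTGgcttgtctgag
Igfbp5, chr1:72858848-72858876: cagcttaagagAGGAGTGagccaaggaga
Among 12869 tested genes with an annotated 3' untranslated region, 12.6% held this match. The match to the miR-483-5p seed, CCCGTCT, was found in none of the 8 members and in 3.28% of the 12869 genes. A seed match is a description of the letters and was not tested as a target site.

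In a knockout design the deleted gene checks the labels. Mir483 had 11, 10, 22, 21 and 12 counts in WT replicates 1 to 5 and 0 counts in each of the 5 Mir483Pat-KO libraries, where a count of 0 allows up to 3 counts, for counting error only. Total counts ranged from 10831350 to 14765880 per library. Hepatocyte markers were abundant in all libraries, with 7 markers summing to 134070 to 153093 CPM (each count divided by its library's TMM-scaled total) in WT against 117170 to 140822 CPM in Mir483Pat-KO. The fetus numbers in the labels fell into a lower range, with WT replicates 1 to 4 and Mir483Pat-KO replicates 1 and 2, and an upper range with the other 4 libraries. What the ranges stand for was not stated, so the fits on the lower range alone and with the range as a covariate are given beside a result where they move it by over 1.5 times.

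The Igfbp2 transcript fell in Mir483Pat-KO livers, to 0.509 of its WT level, and Igfbp2 was the only member to pass the test. Igfbp4 had a ratio of 0.857 and just missed the threshold. Igfbp1, the most abundant member, was not called, and its higher mean in Mir483Pat-KO came from 1 high library. Of the 8 members, 7 had a negative log2 fold change and 1 a positive one, with a median of -0.26 against 0.0042 over all genes tested. The fold changes of all genes were correlated with GC content (Spearman correlation -0.44). With the trends of each library with GC content and length removed, Igfbp1 to Igfbp7 stood at 0.43, -0.83, 0.025, -0.14, -0.42, -0.35 and -0.13. Igfals stood at -0.18 in this alternative, which was chosen after seeing the data.

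Members were called by edgeR's quasi-likelihood test with an adjusted p under 0.05 (Benjamini-Hochberg, over all 14098 genes). By this rule 1 of the 8 members was called, in a comparison where 5.19% of all genes were called in either direction. For lower expression in Mir483Pat-KO the share of all genes was 2.76%, and 1 member was called. For higher expression it was 2.43%, and no member was called. With a fold change over 1.5 added to the rule, 1.23% of all genes and again 1 member were called. At an unadjusted p under 0.05 there were 4 members, Igfbp2, Igfbp4, Igfbp7 and Igfals, and 3128 of the 14098 genes tested. The groups did not overlap at all for 6.60% of the genes tested, and this was so for 0 of the 8 members.

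**Figure D1:**
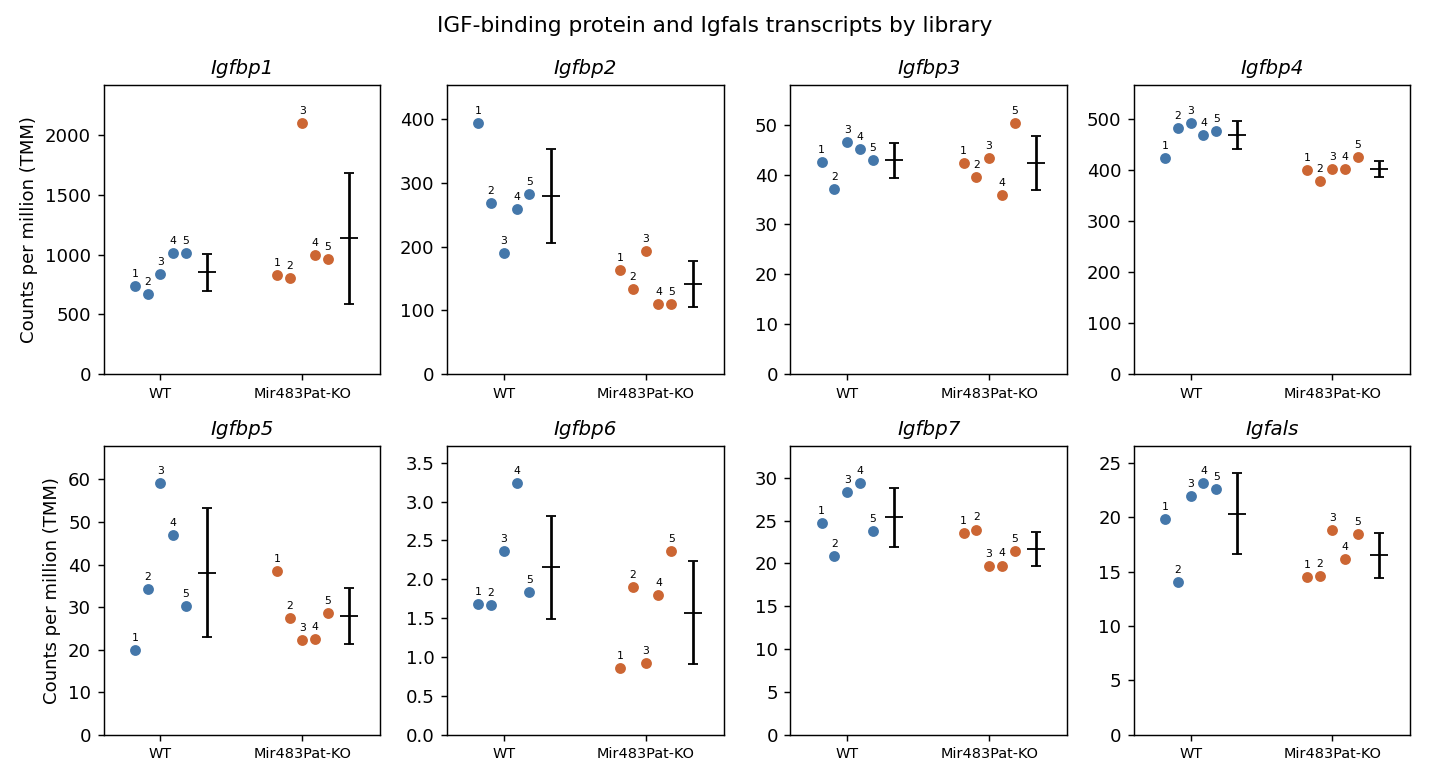
CPM of each member (vertical axes, linear, from 0) in the 5 WT and 5 Mir483Pat-KO libraries. Points are libraries, numbered by replicate, and black bars are the mean ± SD. Igfbp2 shows 4 of 5 Mir483Pat-KO libraries below all WT libraries, and Igfbp1 shows 1 Mir483Pat-KO library at 2106 CPM, far above the rest.

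Igfbp2 (ENSMUSG00000039323, chromosome 1, 72824503 to 72852474, plus strand, GRCm38) encodes a carrier that binds both IGF1 and IGF2. Its level was 394, 268, 190, 259 and 282 CPM in WT replicates 1 to 5, and 164, 134, 192, 110 and 110 CPM in Mir483Pat-KO replicates 1 to 5. Of the Mir483Pat-KO libraries 4 lay below every WT library, and the fifth, replicate 3 at 192.4 CPM, overlapped with WT replicate 3 at 189.9 CPM. The means were 279 ± 73.8 and 142 ± 35.9 CPM (SD, n = 5 libraries each). The log2 fold change was -0.97 (SE 0.17, 95% confidence interval -1.34 to -0.61), a ratio of 0.509, with an adjusted p of 0.0058 from edgeR, and Igfbp2 ranked 88 of 14098 by p.

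The lower Igfbp2 level was present in both ranges of fetus numbers. In the lower range the Mir483Pat-KO libraries stood at 164 and 134 CPM and the WT libraries at 190 to 394 CPM. In the upper range the values were 110 to 192 CPM against 282 CPM in the single WT library. Fitted on the lower range alone, with 4 WT and 2 Mir483Pat-KO libraries, the log2 fold change was -0.90 but the adjusted p was 0.135 (edgeR). When each library was left out in turn, the log2 fold change lay between -1.12 (without Mir483Pat-KO replicate 3) and -0.82 (without WT replicate 1), and the adjusted p stayed between 0.00264 and 0.0262. A stricter question, whether the fold change is past 1.5 (edgeR's glmTreat), called 0 of the 8 members and 4 of all genes.

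Markers of other cell types were read beside Igfbp2, since in bulk tissue fewer cells of a type and less RNA per cell cannot be told apart. The hepatocyte markers were lower for 6 of 7 genes, with a median log2 fold change of -0.18, and their summed levels overlapped between groups. Within this list Cps1, a urea cycle enzyme, fell by 0.65 on the log2 scale (adjusted p = 0.00407, edgeR), and Apoa1 by 0.30 (adjusted p = 0.0262, edgeR). Of 10 erythroid markers 8 were higher, with a median of 0.29. Among them Hbb-bs passed the test (0.54, adjusted p = 0.012, edgeR), although Hbb-bs is near-identical to Hbb-bt and reads could be split between them. The erythroid sum was 16253 to 20812 CPM in WT against 19030 to 26946 CPM in Mir483Pat-KO. The part of cell composition in the Igfbp2 result was not tested. The fold changes of all genes were also related to GC content, with a Spearman correlation of -0.44 over 14089 genes, which are not independent replicates. The longest Igfbp2 transcript is 62.1% G and C, against a median of 49.5% over genes tested. When the smooth trends of each library with GC content and length were removed, an alternative chosen after seeing the data, Igfbp2 had a log2 fold change of -0.83 and an adjusted p of 0.0207 (edgeR).

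The stretch before the first RefSeq start of Igfbp2 is shown because this was the member that changed, with motifs found by letters in capitals, a CACGTG E-box and 3 GC boxes (GGGCGG).
Igfbp2, chr1:72824230-72824479, plus strand, RefSeq, GRCm38.p6: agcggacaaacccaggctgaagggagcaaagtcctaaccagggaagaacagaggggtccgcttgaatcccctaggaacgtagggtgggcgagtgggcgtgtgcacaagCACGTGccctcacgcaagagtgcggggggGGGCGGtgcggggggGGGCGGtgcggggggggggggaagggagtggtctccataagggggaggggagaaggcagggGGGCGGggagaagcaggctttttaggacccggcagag
The GC boxes begin 113, 98 and 37 bases before the start and the E-box 142 bases before it. Both strands were searched, no match overlapped another, and the motifs were chosen after the windows had been read. Among 32851 windows of the 250 bases before a start, 32.7% held GGGCGG and 6.02% held CACGTG. The second RefSeq start of Igfbp2 had neither.

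Igfbp1 (ENSMUSG00000020429, chromosome 11, 7197782 to 7202546, plus strand) encodes the carrier that insulin represses. It was measured at 738, 674, 836, 1013 and 1012 CPM in WT against 828, 801, 2106, 996 and 960 CPM in Mir483Pat-KO replicates 1 to 5. Mir483Pat-KO replicate 3 was above all other libraries, and the other 4 lay within the WT range. The means were 855 ± 155 and 1138 ± 547 CPM (SD, n = 5 libraries each), and the log2 fold change was 0.41 (SE 0.22, 95% confidence interval -0.045 to 0.87) with an adjusted p of 0.276 (edgeR). Without Mir483Pat-KO replicate 3 the log2 fold change was 0.057 (adjusted p = 0.837, edgeR). Within the lower range of fetus numbers, which does not hold this library, it was -0.0044 (adjusted p = 0.991, edgeR), and with the range as a covariate 0.15 (adjusted p = 0.699, edgeR).

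Genes of the fasting and FOXO1 list were read in the same libraries. Pck1, the enzyme that commits carbon to gluconeogenesis, was 51.5 CPM in Mir483Pat-KO replicate 3 and 6.19 to 14.5 CPM in the other 4 Mir483Pat-KO libraries, with 8.63 to 19.3 CPM in WT. G6pc, which releases free glucose, was 146 CPM there against 52.3 to 80.1 CPM in the other Mir483Pat-KO libraries and 61.2 to 99.2 CPM in WT. Trib3, a stress-induced pseudokinase, was 14.9 CPM against 2.62 to 6.85 CPM and 4.35 to 6.03 CPM. Irs2, an insulin receptor substrate, was 99.96 CPM in this library but 95.9 CPM in replicate 5. Tat and Ppargc1a were higher in WT replicate 1 and WT replicate 2, at 28.0 and 35.9 CPM, than in Mir483Pat-KO replicate 3, at 23.1 and 24.2 CPM. These 6 genes were picked from the list after their values were seen. Of the 16 genes of the list, Igfbp1 included, 0 were called (edgeR), where 5.19% of all genes tested were. In the list 9 had a negative log2 fold change and 7 a positive one, with a median of -0.0019. At an unadjusted p under 0.05 there were 4 of the 16, against 3128 of all 14098 genes tested. DESeq2 and limma-voom also called 0 of the list. When Mir483Pat-KO replicate 1 or 3 was left out, 1 gene of the list was called.

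**Figure D2:**
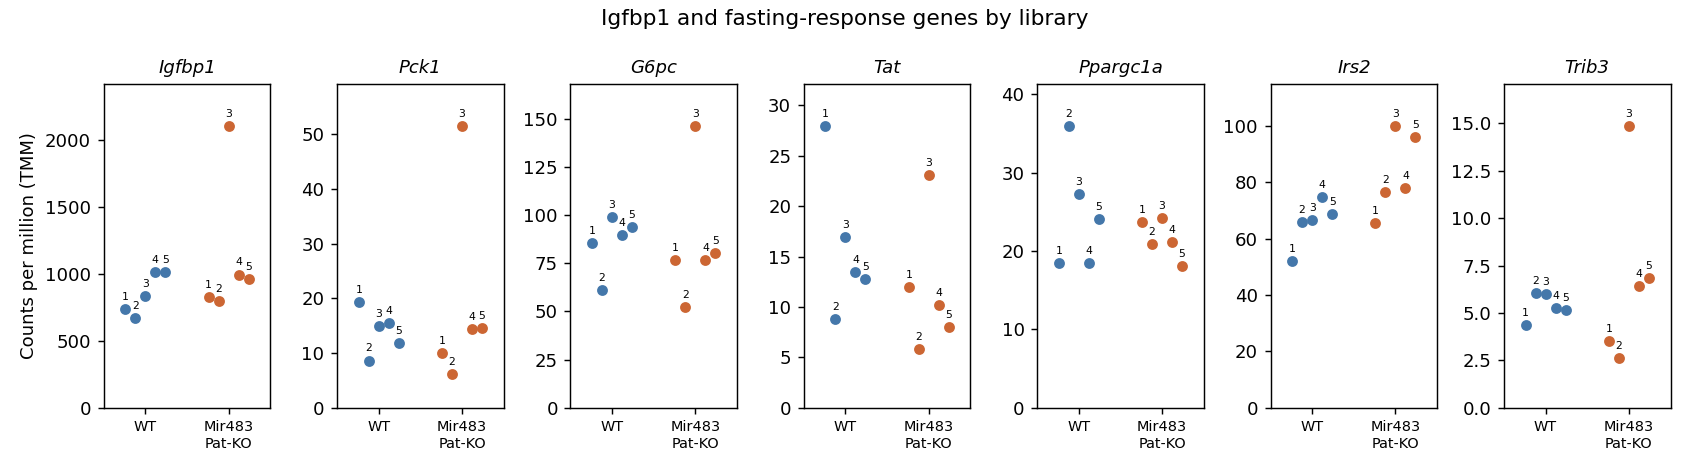
CPM (vertical axes, linear, from 0) of Igfbp1 and 6 genes of the fasting and FOXO1 list in the 5 WT and 5 Mir483Pat-KO libraries, numbered by replicate. Mir483Pat-KO replicate 3 is the highest library for Igfbp1, Pck1, G6pc, Irs2 and Trib3 but not for Tat or Ppargc1a.

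The bases before the Igfbp1 start are shown because Igfbp1, Pck1, G6pc and Trib3 were highest in the same library, with CAAAACA, the core of the insulin response sequence, in capitals.
Igfbp1, chr11:7197637-7197786, plus strand, RefSeq, GRCm38.p6: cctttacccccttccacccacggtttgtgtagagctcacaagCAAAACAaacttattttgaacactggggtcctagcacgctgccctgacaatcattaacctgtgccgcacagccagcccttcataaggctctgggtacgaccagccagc
It begins 108 bases before the start and was found in the upstream window of no other member. Of the 32851 windows 5.56% held it on either strand.

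Igfbp4 (ENSMUSG00000017493, chromosome 11, 99041244 to 99054392, plus strand) encodes a carrier that mainly inhibits IGF action and is cut by PAPPA. It was 424, 482.7, 494, 470 and 477 CPM in WT against 401, 379, 403, 403 and 425.8 CPM in Mir483Pat-KO replicates 1 to 5. Of the Mir483Pat-KO libraries 4 were below all WT libraries, with replicate 5 at 425.8 CPM just above WT replicate 1 at 424.1 CPM. The means were 469 ± 26.8 and 403 ± 16.4 CPM (SD, n = 5 libraries each). The log2 fold change was -0.22 (SE 0.064, 95% confidence interval -0.36 to -0.085) and the adjusted p was 0.0551 (edgeR), just over the threshold. DESeq2 (adjusted p = 0.00357), limma-voom (0.0459), edgeR with the range of fetus numbers as a covariate (0.0388) and edgeR without WT replicate 1 (0.0323) placed it under the threshold. With the GC content and length trends removed the log2 fold change was -0.14 (adjusted p = 0.196, edgeR).

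Igfbp3 and Igfals make the ternary complex that carries most IGF after birth. Igfbp3 (ENSMUSG00000020427, chromosome 11, 7206086 to 7213923, minus strand) was 42.6, 37.1, 46.5, 45.1 and 42.8 CPM in WT against 42.4, 39.6, 43.4, 35.8 and 50.4 CPM in Mir483Pat-KO. Mir483Pat-KO replicate 4 lay below and replicate 5 above all WT libraries, and the other 3 lay within the WT range. For Igfbp3 the log2 fold change was -0.016 (95% confidence interval -0.21 to 0.17, adjusted p = 0.939, edgeR). On the lower range alone it was -0.068 and with the range covariate -0.035 (adjusted p = 0.82 and 0.86, edgeR). The sign changed when WT replicate 3 or Mir483Pat-KO replicate 4 was left out. Igfals (ENSMUSG00000046070, chromosome 17, 24865997 to 24882010, plus strand) was 19.8, 14.1, 22.0, 23.1 and 22.6 CPM in WT against 14.5, 14.6, 18.8, 16.2 and 18.495 CPM in Mir483Pat-KO. All Mir483Pat-KO libraries were below 4 of the WT libraries and above WT replicate 2. The log2 fold change was -0.30 (SE 0.13, 95% confidence interval -0.57 to -0.031, adjusted p = 0.177, edgeR), and without WT replicate 2 it was -0.41 (adjusted p = 0.0287, edgeR). With the GC content and length trends removed it was -0.18 (adjusted p = 0.38, edgeR).

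Igfbp5, Igfbp6 and Igfbp7 are known mainly from mesenchymal and endothelial cells. Igfbp5 (ENSMUSG00000026185, chromosome 1, 72857932 to 72874884, minus strand), which binds extracellular matrix, was 19.9, 34.3, 59.1, 47.1 and 30.4 CPM in WT against 38.5, 27.4, 22.4, 22.5 and 28.7 CPM in Mir483Pat-KO. WT replicate 3 was the highest library and WT replicate 1 the lowest. The log2 fold change was -0.45 (SE 0.22, 95% confidence interval -0.92 to 0.013, adjusted p = 0.238, edgeR), and it was -0.25 without WT replicate 3. The lower range alone and the range covariate both gave -0.29 (adjusted p = 0.716 and 0.438, edgeR). Igfbp6 (ENSMUSG00000023046, chromosome 15, 102144362 to 102149511, plus strand), which prefers IGF2, had only 11 to 42 counts per library. Its mean was 2.16 ± 0.66 CPM in WT against 1.57 ± 0.66 CPM in Mir483Pat-KO (SD, n = 5 libraries each), and its 95% confidence interval, -1.07 to 0.17 on the log2 scale, was the widest of the 8 (adjusted p = 0.386, edgeR). Its log2 fold change was -0.45, with -0.71 on the lower range alone and -0.27 without WT replicate 4 (adjusted p = 0.472 and 0.668, edgeR).

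Igfbp7 (ENSMUSG00000036256, chromosome 5, 77349240 to 77408041, minus strand) encodes a related protein with low affinity for IGFs. It was 24.7, 20.9, 28.3, 29.3 and 23.7 CPM in WT against 23.5, 24.0, 19.7, 19.8 and 21.5 CPM in Mir483Pat-KO. The log2 fold change was -0.23 (SE 0.10, 95% confidence interval -0.44 to -0.017) and the adjusted p was 0.191 (edgeR). It was -0.13 with the GC content and length trends removed and -0.13 on the lower range alone (adjusted p = 0.544 and 0.717, edgeR). Polr2b on the opposite strand shares 7.03% of its exonic bases, and the other 7 members share none with any annotated gene. Of 13 stellate cell and fibroblast markers 9 had a negative log2 fold change and 0 were called by edgeR. Of the 13, 6 were under an unadjusted p of 0.05, and DESeq2 called 3 and limma-voom 1. Of all 14098 genes tested, 3128 were under that p, and edgeR called 731, DESeq2 1167 and limma-voom 753. The stellate and fibroblast list summed to 652 to 1174 CPM in WT against 590 to 897 CPM in Mir483Pat-KO. The smallest p was that of Pdgfrb (-0.48, adjusted p = 0.0511, edgeR), followed by Reln (-0.40, adjusted p = 0.0664, edgeR) and Ngfr (-0.66, adjusted p = 0.071, edgeR). Of these 3, the groups of Ngfr alone did not overlap. Of 12 sinusoidal endothelial markers 11 were negative and 1 was called, the receptor Tie1 (-0.33, adjusted p = 0.0227, edgeR), where 2.76% of all genes tested were called lower. Of the mesothelial (6), bile duct (6) and smooth muscle (3) markers edgeR called 0, and 2, 1 and 0 of them were under an unadjusted p of 0.05. DESeq2 called 1 bile duct marker and none of the others, and limma-voom called none. Of 8 macrophage markers 5 had a positive and 3 a negative log2 fold change, with a median of 0.087. Against the same 2.76%, 2 of them were called lower, Clec4f (-0.46, adjusted p = 0.0416, edgeR) and C1qa (-0.29, adjusted p = 0.0389, edgeR). The part of these cell types in the 3 members was not tested.

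**Figure D3:**
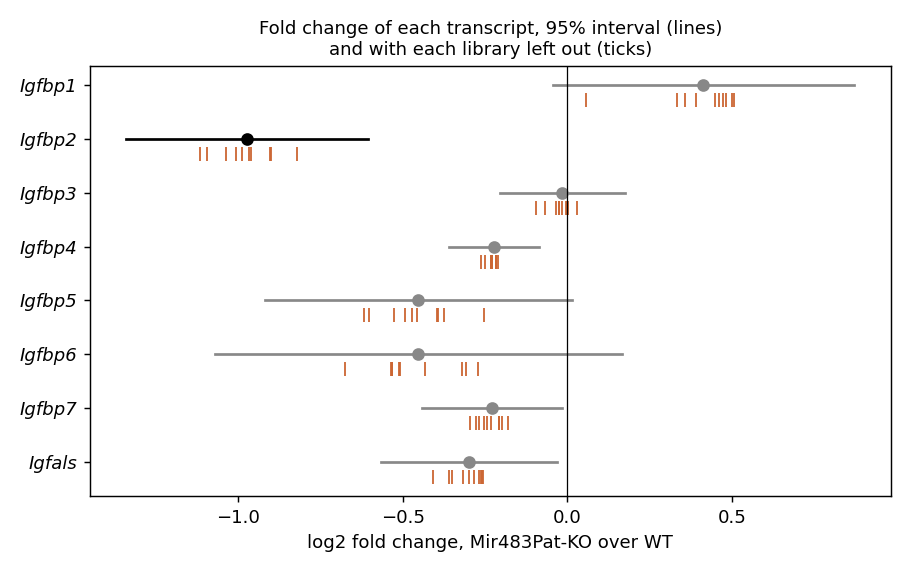
The log2 fold change of each member, Mir483Pat-KO over WT (horizontal axis), as a point with its 95% confidence interval (line) from edgeR, black where the adjusted p was under 0.05 and grey otherwise. Orange ticks are the fits with each of the 10 libraries left out. The Igfbp2 interval, -1.34 to -0.61, and all of its ticks lie below 0, and 1 tick of Igfbp1 drops to 0.057.

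Levels were then compared between members per kilobase of merged exons. In WT the order was Igfbp1 (560 CPM per kilobase), Igfbp2 (151), Igfbp4 (106), Igfbp7 (21.002), Igfbp3 (13.7), Igfals (6.41), Igfbp5 (6.35) and Igfbp6 (1.94). In WT the values of Igfbp2 (103 to 214) and Igfbp4 (96.0 to 112) overlapped, as did those of Igfals and Igfbp5, whereas Igfbp7 (17.3 to 24.3) and Igfbp3 (11.9 to 14.9) did not. In Mir483Pat-KO the mean of Igfbp4 (91.2) was above that of Igfbp2 (76.8). By library, Igfbp2 was above Igfbp4 in 4 of 5 WT libraries and below it in 4 of 5 Mir483Pat-KO libraries.

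The 7 Igfbp transcripts summed to 861 ± 100.1 CPM per kilobase in WT against 952 ± 371 in Mir483Pat-KO (SD, n = 5 libraries each). The Mir483Pat-KO sum ranged from 723 to 1611, with the highest value in replicate 3. Igfbp2 made up 25.7%, 19.8%, 12.6%, 14.6% and 15.8% of this sum in WT replicates 1 to 5, and 11.6%, 10.04%, 6.47%, 7.10% and 7.18% in Mir483Pat-KO replicates 1 to 5. These groups did not overlap. Igfbp1 made up 58.1% to 69.2% in WT against 71.2% to 85.7% in Mir483Pat-KO, or 71.2% to 78.0% without Mir483Pat-KO replicate 3, and these did not overlap either. Igfbp4 made up 11.1% to 14.9% in WT against 5.66% to 11.9% in Mir483Pat-KO, with overlap. Shares of 1 sum are not independent of each other, and they were not tested.

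**Figure D4:**
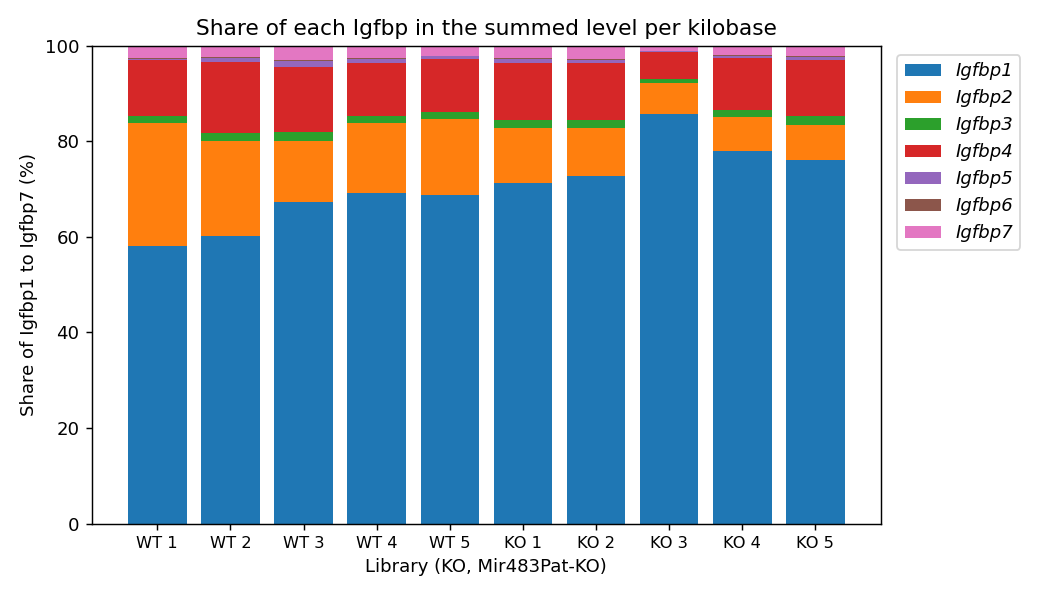
Stacked bars of each Igfbp as a percent of the summed level per kilobase of Igfbp1 to Igfbp7 (vertical axis, 0 to 100) in the 5 WT and 5 Mir483Pat-KO (KO) libraries. The Igfbp2 segment is 12.6% to 25.7% in WT against 6.47% to 11.6% in Mir483Pat-KO, and the Igfbp1 segment is 58.1% to 69.2% and 71.2% to 85.7%.

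Igfbp2 and Igfbp5 are neighbours on chromosome 1, 5457 bp apart and facing each other, and Igfbp1 and Igfbp3 lie in the same way on chromosome 11, 3539 bp apart. In neither pair did both genes pass the test. The deviations of log2 CPM from the group mean, over the 10 libraries, had a Pearson r of -0.58 for Igfbp2 and Igfbp5 (Spearman rho -0.60) and of 0.26 for Igfbp1 and Igfbp3 (rho 0.43). Of the 28 pairs of members the highest r was that of Igfbp3 and Igfals (0.68, rho 0.62), the highest rho that of Igfbp1 and Igfals (0.88, r 0.66), and the lowest of both that of Igfbp2 and Igfbp6 (-0.72, rho -0.73). Of the nearest protein-coding neighbours outside the family 10 were tested and none was called by edgeR, with Top2a and Spryd3 under an unadjusted p of 0.05, and Gm11985 and Tnp1 had 0 counts in every library. The 10 included Rpl37a beside Igfbp2 (-0.14, adjusted p = 0.277, edgeR), Top2a beside Igfbp4 (0.16, adjusted p = 0.202, edgeR) and Soat2 beside Igfbp6 (0.096, adjusted p = 0.673, edgeR).

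Genes with the pattern most like each member were taken from 12549 genes by the Pearson r of the same deviations over the 10 libraries, which share depth and handling. Igfbp2 was most like Azgp1 (r = 0.93, rho 0.94) and Serpina1e (r = 0.92, rho 0.92), both genes of secreted proteins, the latter from a family of near-identical copies. Igfbp1 was most like Neat1 (r = 0.96, rho 0.95) and Bmp10 (r = 0.95, rho 0.90). Igfbp5 was most like Fbn1 (r = 0.96, rho 0.95) and Fras1 (r = 0.96, rho 0.96), both genes of extracellular matrix proteins. The top genes were Cirbp and Dis3l2 for Igfbp4, Tecpr2 and Gstm4 for Igfbp3, Vps37c and Tmem203 for Igfbp6, Ggta1 and Mroh2a for Igfbp7, and Scamp5 and A230050P20Rik for Igfals. These are the highest of many values and carry no p.

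The ligands of the binding proteins were not called. Igf1 was 22.6 ± 4.0 CPM in WT against 25.4 ± 4.0 CPM in Mir483Pat-KO (SD, n = 5 libraries each, log2 fold change 0.17, adjusted p = 0.458, edgeR), and its sign turned, to -0.044, with the GC content and length trends removed. Igf1 was at 0.055 on the lower range of fetus numbers alone, at 0.068 without Mir483Pat-KO replicate 3 and at 0.076 without WT replicate 5. Igf2 was 142 ± 15.6 and 124 ± 14.4 CPM (SD, n = 5 libraries each, -0.20, adjusted p = 0.205, edgeR), and at -0.12 with the same trends removed. Igf2 shares exons with Gm49394 on the same strand, and its counts may hold only a part of its reads. Among 11 tested ligands, receptors and carriers, with 8 negative and a median of -0.12, 1 was called, where 5.19% of all genes were. This was Lrp1, an endocytic receptor that also binds IGFBP3, at 425 ± 50.4 CPM in WT against 315 ± 51.1 CPM in Mir483Pat-KO (SD, n = 5 libraries each, -0.43, adjusted p = 0.031, edgeR). Its groups did not overlap, at 367 to 470 CPM and 248 to 365 CPM. The call was lost, with an adjusted p of 0.0517 to 0.0799 (edgeR), when WT replicate 3, 4 or 5 or Mir483Pat-KO replicate 2, 3 or 4 was left out. The receptors Igf1r (-0.077), Igf2r (-0.19) and Insr (-0.12) were not called, with adjusted p of 0.598, 0.214 and 0.429 (edgeR).

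Among 15 tested IGFBP proteases and their inhibitors 2 were called, both lower, where 2.76% of all genes tested were called lower. The median log2 fold change of the 15 was -0.14, with 11 negative, against a median of 0.0042 over all genes. DESeq2 and limma-voom each called 3 of the 15. Mmp14, a membrane metalloprotease, was at 84.7 ± 5.83 and 67.0 ± 5.84 CPM (SD, n = 5 libraries each, -0.34, adjusted p = 0.018, edgeR), with an adjusted p of 0.0524 without Mir483Pat-KO replicate 4. F2, prothrombin, was at 1918 ± 132 and 1612 ± 56.1 CPM (SD, n = 5 libraries each, -0.25, adjusted p = 0.0429, edgeR), and that call was lost when any of 8 libraries was left out, all but WT replicate 2 and Mir483Pat-KO replicate 1 (0.055 to 0.0916). Pappa, which cuts IGFBP4, was near the detection limit with at most 20 counts (0.23, adjusted p = 0.70, edgeR). Of 6 tested proteins with an IGFBP domain 0 were called by edgeR, DESeq2 or limma-voom, where edgeR called 5.19% of all genes tested. The only one of the 6 under an unadjusted p of 0.05 was Ccn1, which stood at 0.64 (adjusted p = 0.178, edgeR).

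Of 12 tested genes of growth hormone and STAT5 signalling 2 were called, both higher, where 2.43% of all genes tested were called higher. The median of the 12 was 0.095, with 7 positive and 5 negative. Jak2, the kinase of the growth hormone receptor, was 47.9 ± 4.41 and 59.0 ± 2.65 CPM (SD, n = 5 libraries each, 0.30, adjusted p = 0.0265, edgeR). Socs3, an inhibitor of JAK signalling, was 10.7 ± 0.98 and 14.3 ± 1.96 CPM (SD, n = 5 libraries each, 0.42, adjusted p = 0.0379, edgeR). The Jak2 call was lost without WT replicate 3, 4 or 5 or Mir483Pat-KO replicate 2 or 3 (adjusted p up to 0.0732, edgeR). The Socs3 call was lost without WT replicate 1, 4 or 5 or Mir483Pat-KO replicate 3, 4 or 5 (adjusted p up to 0.0877, edgeR). On the lower range of fetus numbers alone none of Lrp1, Mmp14, F2, Jak2 and Socs3 was called, with adjusted p of 0.194 to 0.56 (edgeR), and Socs3 was at 0.18 there. The offsets for GC content and length ended the calls of F2 (adjusted p = 0.0796, edgeR) and Jak2 (0.057), the fit with no low-count filter also that of F2 (0.0665), and the range covariate that of Socs3 (0.0677). Igfals, the member known to depend on this pathway, Socs2 (-0.36, adjusted p = 0.136, edgeR) and Ghr (0.17, adjusted p = 0.32, edgeR) were not called. The STAT5-type palindrome TTCNNNGAA was found in 2 of the 3 upstream windows of Igfals and in those of no other member, against 7.02% of all 32851 windows.

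Igfbp3 and Igfbp5, the 2 members with a match to the miR-483-3p seed, had log2 fold changes of -0.016 and -0.45, and neither was called. Igfbp2, the member that was called, held no match to either seed in its 312-base 3' untranslated region.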

How the data were processed

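Liver RNA of 10 fetuses was measured, 1 library each. The authors made stranded polyA libraries, aligned paired reads with STAR to GRCm38 and deposited whole-number read counts per gene (per the labels and the study's methods). How reads shared by overlapping genes were counted is not given in the sources used here. Ensembl identifiers were matched to GENCODE M21, and 55141 of the 55401 gene rows had a symbol.

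The counts were tested in R 4.3.3 with edgeR 4.0.16 (filterByExpr, TMM scaling, quasi-likelihood F-test, Benjamini-Hochberg adjustment over 14098 genes). The standard error is the log2 fold change divided by the square root of F. CPM used TMM library sizes, and levels per kilobase used merged exon length. With 10831350 to 14765880 counts a library, Igfbp6 was the member that depth limited most. Counting error and the difference between fetuses are both in the intervals, which cover nothing else. The test was tried on simulated data first.

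The members and gene lists (5 pathway lists and 8 cell type marker lists) were chosen with earlier results of these data known. All 8 members were named, with Mir483, Igf1, Igf2, called list genes and 1 or 2 that mark a list, neighbours, markers, and the 2 genes most like each member. Where fasting genes and marker examples beyond this rule are named, they were chosen after their values were seen. Alternatives were RLE scaling, DESeq2 1.42.0, limma-voom (limma 3.58.1), the robust fit, other filters, the replicate number as a block, the range of fetus numbers, each library left out, glmTreat, and GC content and length offsets, the last chosen after seeing the data. Whether the replicate numbers pair the samples was not stated, and the main fit used no block. Correlations of same-numbered deviations were -0.050 to 0.26.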

Additional observations from a re-analysis of the deposited data

Results flagged for a closer look

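Igfbp1 was 2106 CPM in Mir483Pat-KO replicate 3, and the nearest other library of that group was at 996 CPM. The gap was 0.851 of the whole range of the group, above the 95% critical value of 0.71 that Dixon's test sets for 5 samples. Of the 16 groups examined, 8 members in each genotype, this was the only 1 with such a library, and chance gives about 1 in 20. The same library was the highest of all 10 for Pck1 (51.5 CPM), G6pc (146 CPM) and Trib3 (14.9 CPM). These genes were picked from the fasting and FOXO1 list after their values were seen. Of the same list, Tat was higher in WT replicate 1 (28.0 against 23.1 CPM) and Ppargc1a in WT replicate 2 (35.9 against 24.2 CPM). What set this library apart was not tested.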

How the results depend on the processing

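Igfbp2 remained lower in each of the alternatives other than glmTreat, with log2 fold changes of -0.98 to -0.83 outside the fits that left out a library. The adjusted p went from 3.08e-13 (no low-count filter) to 0.135 (lower range of fetus numbers alone, -0.90), the only 1 of these fits over the threshold. With glmTreat, which asks whether the fold change is past 1.5, Igfbp2 was not called. Without the low-count filter Igfbp1 (0.41, adjusted p = 0.0149) and Igfbp5 (-0.45, adjusted p = 0.0106) passed, and on the lower range alone Igfbp1 turned to -0.0044. Igfbp4 passed with DESeq2 (-0.22, adjusted p = 0.00357), limma-voom (-0.22, 0.0459) and the range of fetus numbers as a covariate (-0.24, 0.0388). The sign of Igfbp3 turned with GC content and length offsets (0.025) and without WT replicate 3 (0.0027) or Mir483Pat-KO replicate 4 (0.028), and that of Igf1 with the offsets (-0.044). The causes were not tested.

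With each library left out in turn, the log2 fold change ranged from 0.057 to 0.51 for Igfbp1, -1.12 to -0.82 for Igfbp2, -0.096 to 0.028 for Igfbp3, -0.26 to -0.21 for Igfbp4, -0.62 to -0.25 for Igfbp5, -0.68 to -0.27 for Igfbp6, -0.30 to -0.18 for Igfbp7 and -0.41 to -0.26 for Igfals. The count of genes called ranged from 279 (without Mir483Pat-KO replicate 4) to 863 against 731 in all libraries, and with a fold change over 1.5 from 97 (without Mir483Pat-KO replicate 4) to 233 against 173. Members called ranged from 1 to 2, or 1 to 1 with the fold change. List genes called ranged from 0 to 2 for ligands, receptors and carriers, 0 to 3 for proteases, 0 to 4 for growth hormone and STAT5 genes and 0 to 1 for FOXO1 and fasting genes.

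Genes called numbered 1167 with DESeq2, 1258 with no filter (321 with the fold change), 1189 with the range covariate, 23 on the lower range alone (21 with the fold change) and 4 with glmTreat. Members called were 2 with DESeq2, 2 with limma-voom, 3 with no filter, 2 with the range covariate, 0 on the lower range alone and 0 with glmTreat. Ligand, receptor and carrier genes called, 1 in the report, were 2 with no filter, 0 on the lower range and 2 with GC offsets. Protease genes, 2 in the report, were 0 on the lower range and 1 with GC offsets. Genes with an IGFBP domain, 0 in the report, were 1 with no filter. Growth hormone and STAT5 genes, 2 in the report, were 4 with no filter, 1 with the range covariate and 0 on the lower range. FOXO1 and fasting genes, 0 in the report, were 3 with no filter, 1 with the range covariate and 2 with GC offsets.

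Whether the replicate numbers pair littermates was not stated. The same-numbered libraries correlated at -0.050 to 0.26, with a mean of 0.087 against -0.022 for other pairs, which cannot settle it. With the replicate number as a block the log2 fold change was 0.32 for Igfbp1 (adjusted p = 0.21) and -0.98 for Igfbp2 (adjusted p = 0.00247), and no member's call changed. The block gave 1338 genes called (216 with the fold change), 1 member, 2 ligand, receptor and carrier genes, 2 protease genes, 3 growth hormone and STAT5 genes and 1 FOXO1 and fasting gene.

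Between CPM and counts per kilobase the share of Igfbp1 in the Igfbp sum, over all libraries, moved from 55.9% to 70.8% and that of Igfbp4 from 25.8% to 11.5%. Depth limited Igfbp6 most, at 11 to 42 counts per library.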
